A study of Harpegnathos saltator with 14 samples.

Results

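The loci described here are 88 transcribed loci of the ant Harpegnathos saltator that carry identifiers starting with XLOC and were at their highest in the pupa. They were chosen by their measured levels: 2 or more of the 14 libraries had to reach an RPKM of 1, and the highest of 7 group means of log2(RPKM + 1) had to be that of early or late pupae. RPKM is the number of reads scaled to gene length and to the library's total. The rule took 88 of the 397 XLOC loci that passed the filter, out of 438 XLOC loci and 20755 gene models in all. Of the 88 loci, 65 were highest in late pupae and 23 in early pupae.

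Pupae at an early and at a late stage were set beside embryos, instar 1 and instar 4 larvae, adult workers, and males, with 2 libraries a group made from poly(A) RNA of whole bodies with retention of the strand. All animals were kept in plaster nests and fed live crickets, and the labels give neither strain, nor colony, nor age beyond the stage, nor treatment. The sex and caste of the immature stages are also not in the labels, and neither is the number of animals in a library. Nothing in the labels says that the 2 libraries of a group came from separate animals, so the p-values cover the spread between libraries, which may be technical. In whole bodies, fewer cells of a type and less RNA per cell cannot be told apart.

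In insects with complete metamorphosis the pupa does not feed. Larval tissues are broken down while the legs, wings, eyes and cuticle of the adult are formed, and the animal emerges as an adult at the end of the stage. Identifiers that start with XLOC are the default names that transcript assemblers of the Cufflinks family give to loci built from reads. Such loci can be long noncoding RNAs, untranslated ends of neighbouring genes or coding genes missed by gene prediction, and the table does not say which of these any of the 88 is. None of the identifiers was found in the RefSeq gene table of assembly Hsal_v8.6 (0 of 20755 matched), so the loci are given by identifier, without position, sequence or function.

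The libraries differ in ways that touch every value below. Library denominators, which turn the RPKM values into whole reads, ran from 11378691 to 40062882 reads. Reads in gene models made up from 31.5% of the denominator in instar 1 replicate 2 to 55.0% in instar 4 replicate 1. They made up 36.6% in early pupa replicate 1 and 51.7% in early pupa replicate 2. The median RPKM of the 12421 genes past the filter ran from 2.69 in instar 4 replicate 2 to 8.34 in embryo replicate 1. The early pupa replicates lay at least 4-fold apart on the RPKM + 1 scale in 1224 of 12421 genes (9.85%), against 185 (1.49%) for the late pupa replicates. Early pupa replicate 1 was the higher of its pair in 78.7% of all genes tested.

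A few loci held nearly all of the signal of the 88 in late pupae and most of it in early pupa replicate 1. In early pupa replicate 2 they held little of it. The summed level of the 88 loci was 61052 RPKM in late pupa replicate 1, 47089 in late pupa replicate 2, 9343 in early pupa replicate 1 and 437 in early pupa replicate 2. In the 10 libraries of the other groups the sum ran from 196 to 516 RPKM. Without the 3 most abundant loci, XLOC_066657, XLOC_066658 and XLOC_055444, the pupal libraries summed to 676, 828, 1085 and 400 RPKM in the same order, and the highest other library, embryo replicate 1, to 506. The early pupa replicate 2 sum was below that of embryo replicate 1 both with and without these 3 loci. With all 88 loci it was also below that of male replicate 2, at 486 RPKM. The median locus stood at 6.06 RPKM in early pupa replicate 1, 4.99 in late pupa replicate 2, 3.99 in late pupa replicate 1 and 1.92 in early pupa replicate 2, and between 0.771 and 2.36 in the other libraries.

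**Figure D1:**
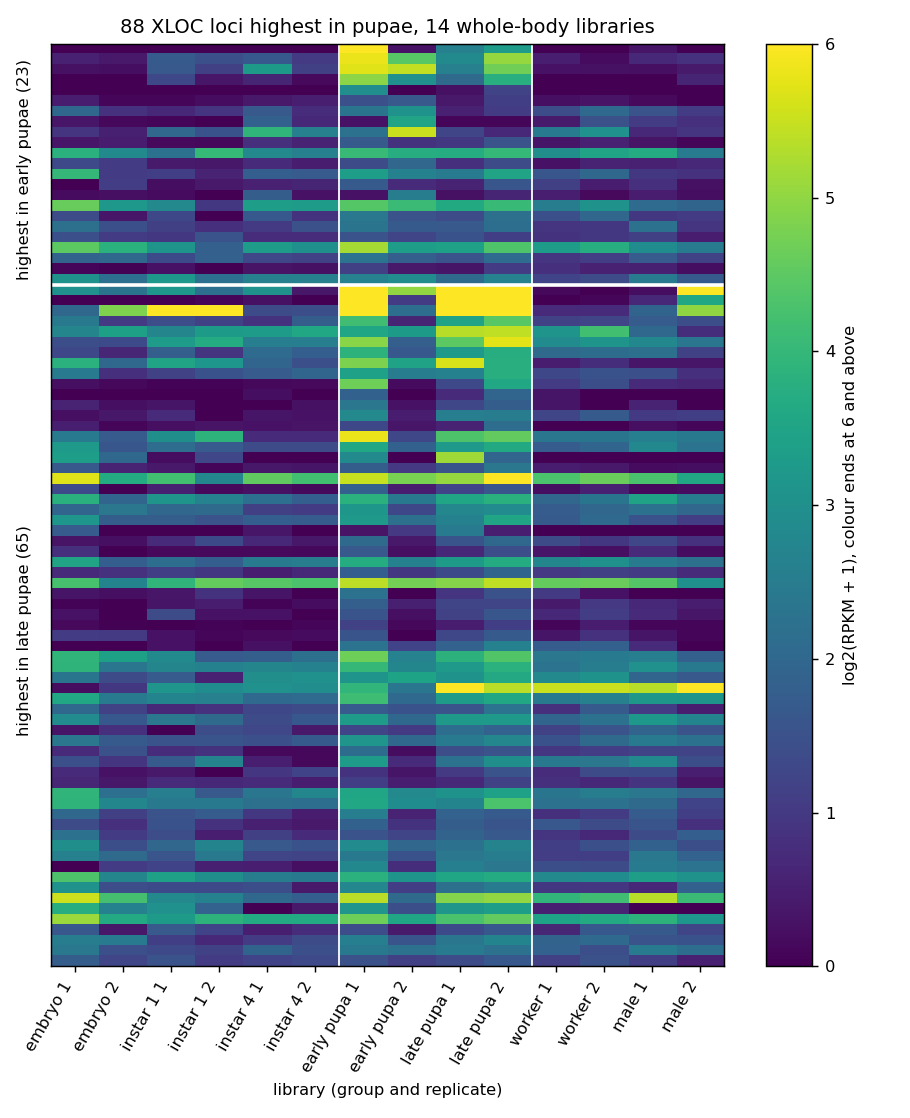
Level of each of the 88 loci (rows, ordered by highest pupal group and by their distance from the other groups) in the 14 libraries (columns), as log2(RPKM + 1) with the colour scale ending at 6. The upper rows of each block are mostly brighter in the pupal columns than elsewhere, with exceptions. XLOC_055444 is also bright in instar 1 and XLOC_066657 in male replicate 2, and XLOC_078413 is dark in early pupa replicate 2. In the lower rows of each block the pupal columns stand out less from the others. Early pupa replicate 2 is darker than the other pupal columns in most of the 65 lower rows.

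XLOC_066657 was the most abundant of the 88 loci, with a gene length of 1107 bases in the authors' scaling. It stood at 54838 and 41744 RPKM in the late pupa libraries, from 1104447 and 1851335 reads, and at 7329 and 31.8 RPKM in early pupa replicates 1 and 2. The embryo libraries held 7.24 and 3.96 RPKM, the instar 1 libraries 7.85 and 3.54, the instar 4 libraries 7.47 and 0.304, and the worker libraries 0.0986 and 0. The male libraries stood far apart, at 0.176 RPKM from 3 reads in replicate 1 and 208 RPKM from 2623 reads in replicate 2. Both late pupa libraries lay above all others, early pupa replicate 1 came next, and male replicate 2 lay above early pupa replicate 2. It ranked 3 and 2 among all gene models in the late pupa libraries, 4 in early pupa replicate 1, 745 in early pupa replicate 2 and 269 in male replicate 2. Its reads made up 6.07% and 4.62% of the library denominators in late pupae.

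XLOC_066658 carries the next identifier number and was also higher in both late pupa libraries than in early pupae, with late pupa replicate 2 above replicate 1 where XLOC_066657 had the reverse. Late pupae held 712 and 1035 RPKM, and early pupae 147 and 1.06. The embryo libraries held 0 reads each, the instar 1 libraries 0 and 1 reads, the instar 4 libraries 3 and 0, the worker libraries 0 and 1, and the male libraries 9 and 124 reads, or 0.600 and 11.2 RPKM. Over a floor of 3 reads in 1 library, the late pupa mean was at least 4207-fold higher than the embryo level. The ratio of XLOC_066657 to XLOC_066658 in RPKM was 77.0 and 40.4 in late pupae, 49.7 and 29.9 in early pupae and 18.6 in male replicate 2, so the ratio was not constant over libraries. The table gives no positions, and whether the pair are neighbours in the genome was not tested.

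XLOC_055444 was the other locus above 100 RPKM in its highest group, at 4825 and 3482 RPKM in late pupae and 782 and 3.51 in early pupae. Unlike XLOC_066657, it had a second level in young larvae, with 87.4 and 73.4 RPKM in instar 1, against 1.63 and 1.73 in instar 4. Embryos held 3.05 and 27.6 RPKM, workers 0.659 and 0.658, and males 2.83 and 31.0. The instar 1 libraries did not overlap those of any other non-pupal group. Male replicate 2 was again above male replicate 1, as for XLOC_066657 and XLOC_066658, while over all 88 loci male replicate 1 was the higher library in 67, beside 69.9% of all genes tested.

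XLOC_057380, XLOC_092877 and XLOC_073482 showed another order over the pupal libraries, with early pupa replicate 1 highest and late pupa replicate 1 lowest. XLOC_057380 stood at 55.7 and 20.9 RPKM in early pupae and 6.35 and 32.1 in late pupae. It held between 1.04 and 2.25 RPKM in the larval libraries and between 0.132 and 0.812 in those of embryos, workers and males, so all 4 pupal libraries lay above the other 10. XLOC_092877 stood at 51.0 and 42.8 RPKM in early pupae and 5.13 and 25.1 in late pupae. Instar 4 replicate 1 held 8.66 RPKM of it, above late pupa replicate 1, while instar 4 replicate 2 and both instar 1 libraries held between 1.19 and 2.19, and the remaining 6 libraries between 0.171 and 0.346. XLOC_073482 stood at 30.3 and 7.20 RPKM in early pupae and 3.21 and 12.5 in late pupae, held 10, 2, 4 and 1 reads in the larval libraries, and had 0 reads in both embryo libraries, both worker libraries and male replicate 1. All 3 had reads in both larval stages.

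XLOC_078413 rested on a single library. Early pupa replicate 1 held 183 RPKM of it from 761 reads, early pupa replicate 2 held 1 read, and late pupae held 23 and 89 reads, or 5.12 and 8.99 RPKM. Both libraries of embryos, instar 1, instar 4 and workers held 0 reads, and the males 1 and 0. Over a floor of 3 reads in 1 library the early pupa mean was at least 107-fold higher than instar 1. That mean is set by replicate 1, and without that library the highest group of the locus would be late pupae. XLOC_094280, with 31 reads in early pupa replicate 1, 0 in replicate 2 and 1 and 15 in late pupae, had 0 reads in the other 10 libraries. This last locus was chosen after its values were seen.

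**Figure D2:**
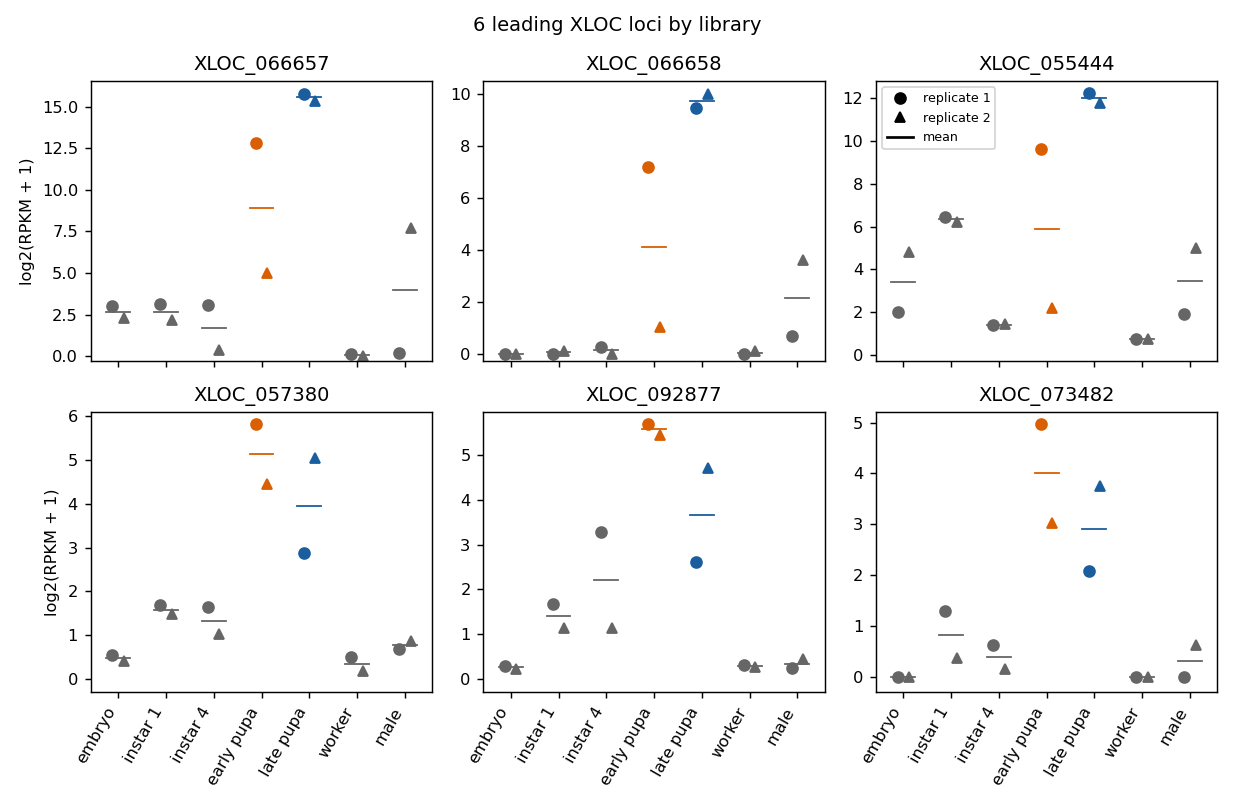
log2(RPKM + 1) of 6 loci in the 7 groups, with circles for replicate 1, triangles for replicate 2 and a line for the mean of both. In the upper 3 panels the late pupa libraries are highest and male replicate 2 is above replicate 1. In the lower 3 panels early pupa replicate 1 is highest, and the late pupa replicates lie apart, with replicate 2 above replicate 1.

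Another 6 of the more abundant loci had reads in all 14 libraries, and their pupal values stood out to different degrees. XLOC_068923 stood at 32.0 and 64.1 RPKM in late pupae, and embryo replicate 1 held 51.2 RPKM against 11.9 in embryo replicate 2, so the groups overlapped. XLOC_064315 stood at 109 and 40.3 RPKM in late pupae, where replicate 2 lay below both worker libraries (44.7 and 45.1) and male replicate 2 (69.6). XLOC_007232 stood at 39.8 and 42.1 RPKM in late pupae, the closest replicates of the 88 loci among those at 10 RPKM or more in their highest group, against 10.6 and 8.71 in early pupae and at most 17.2, in worker replicate 2, elsewhere. XLOC_052413 stood at 9.91 and 20.6 RPKM in late pupae and 17.0 and 0.544 in early pupae, with at most 4.37 in the 10 other libraries. XLOC_027034 was the locus whose early pupa values differed most in the other direction, at 3.82 RPKM in replicate 1 and 44.6 in replicate 2, with 14.3 and 5.12 in instar 4. XLOC_095290 stood at 35.5 and 9.18 RPKM in early pupae, and replicate 2 lay below both embryo libraries (21.6 and 13.2).

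The gap between the highest pupal and the highest non-pupal group mean, which the rule used, was small for most of the 88. It was below 0.5 on the log2 scale for 45 loci, from 0.5 to 1 for 22, from 1 to 2 for 13 and at least 2 for 8, where 8.62% of all genes highest in pupae reached 2. The largest gaps were 11.57 for XLOC_066657, 7.60 for XLOC_066658 and 5.66 for XLOC_055444 among loci highest in late pupae. Among those highest in early pupae they were 3.74 for XLOC_078413, 3.55 for XLOC_057380, 3.37 for XLOC_092877 and 3.17 for XLOC_073482. Just inside the rule lay XLOC_085475 and XLOC_038147, with gaps of 0.000700 and 0.00880, and just outside lay XLOC_017738, highest in embryos, and XLOC_024355, highest in males, with gaps of -0.00360 and -0.00890.

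Both libraries of the highest pupal group lay above all 10 non-pupal libraries for 30 of the 88 loci, 23 highest in late and 7 in early pupae, beside 37.9% of all genes highest in pupae. All 4 pupal libraries did so for 6 loci, beside 6.35%: XLOC_013679, XLOC_049318, XLOC_057380, XLOC_073482, XLOC_095591 and XLOC_110891. For 16 loci the single highest library was a non-pupal one, and in 12 of these it was embryo replicate 1. Embryo replicate 1 was the higher of the embryo pair in 69 of 88 loci, beside 55.9% of all genes tested. The rule used these contrasts, so these counts describe the choice and carry no test. By the same rule 18.4% of all 12421 genes, 22.2% of XLOC loci and 18.3% of the other gene models were highest in pupae.

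**Figure D3:**
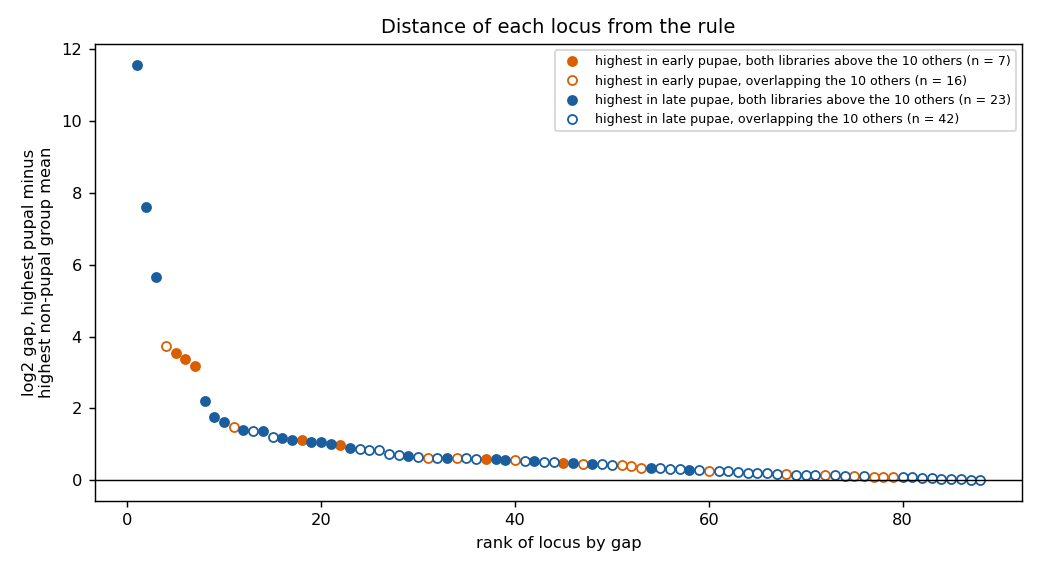
Log2 gap between the highest pupal and the highest non-pupal group mean for each locus, in order of the gap. Filled points are loci with both libraries of the highest pupal group above all 10 non-pupal libraries (7 highest in early and 23 in late pupae), open points are the others, and 45 of 88 points lie below 0.5.

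The early pupa replicates parted the loci more than the late pupa replicates did. Early pupa replicate 1 was the higher library in 79 of 88 loci, beside 78.7% of all genes tested, and in 63 of the 65 highest in late pupae. The early pupa pair lay at least 4-fold apart in 22 loci, beside 9.85% of all genes tested, and the late pupa pair in 4, beside 1.49%. Early pupa replicate 1 exceeded all 10 non-pupal libraries in 60 loci, and early pupa replicate 2 in 13. Of the 65 loci highest in late pupae, 24 had their single highest value in early pupa replicate 1, 22 in late pupa replicate 2 and 7 in late pupa replicate 1. In 20 of 88 loci early pupa replicate 2 lay below the higher instar 4 library. For these counts of 60, 13 and 20 loci no share over all genes was computed. The rule used the pupal values, so they describe the choice and carry no test. Which of the pupal groups is called highest therefore rests on a single library for many loci, but not for all. Of the 88, 84 stayed highest in pupae without early pupa replicate 2, and 39 of these kept their pupal group. The same numbers were 78 and 70 without early pupa replicate 1, 83 and 73 without late pupa replicate 1, and 69 and 54 without late pupa replicate 2. Without early pupa replicate 2, 102 XLOC loci were highest in early and 20 in late pupae, against 23 and 65 with all libraries. Without early pupa replicate 1 the numbers were 16 and 66, and without late pupa replicate 2 they were 33 and 37. Without both early pupa libraries, a setting chosen after seeing the data, 70 loci were highest in late pupae. All 70 had to be among the 88, since a late pupa mean above every non-pupal mean already meets the rule.

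**Figure D4:**
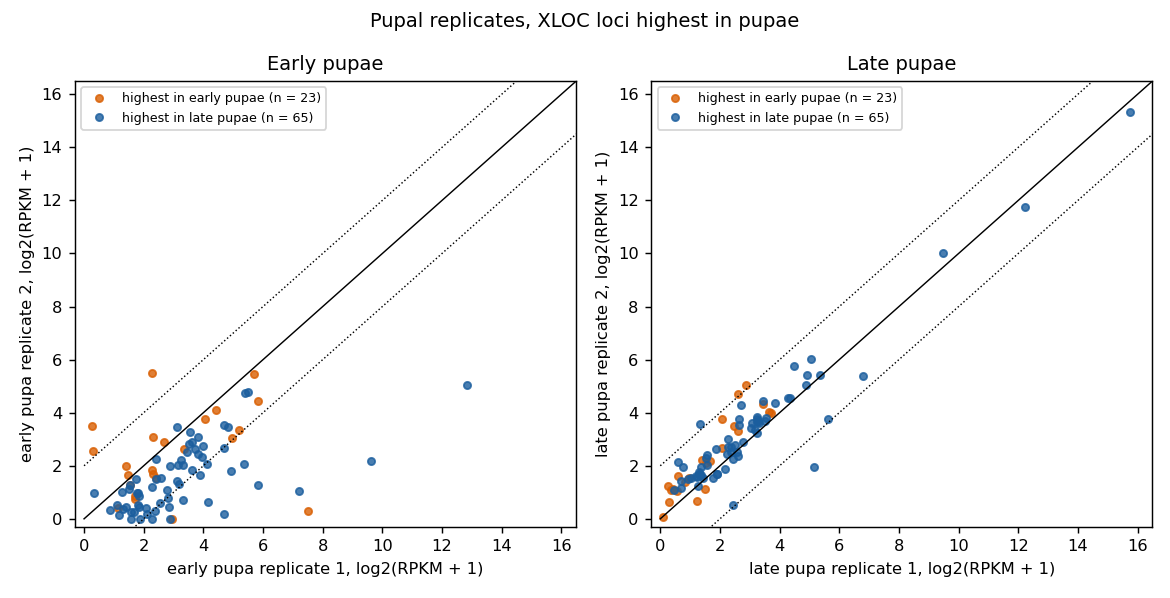
Replicate 2 against replicate 1 in log2(RPKM + 1) for early pupae (left) and late pupae (right), 1 point per locus, with the line of equality and dotted lines 4-fold apart. On the left 79 of 88 points lie below the line of equality and 22 at or beyond the dotted lines, and on the right 4 do.

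The 88 loci ranged from 212 to 5130 bases in gene length, with a median of 1028, against a median of 1092 for the other 309 XLOC loci past the filter. The longest were XLOC_084578 at 5130 and XLOC_105207 at 4399 bases, and the shortest XLOC_031326 at 212 and XLOC_034997 at 234 bases, with 20 and 23 reads in their highest group. The length was a multiple of 3 for 40 of 88 loci (45.5%), against 34.95% of the other XLOC loci and 97.8% of the HSALG gene models, lengths that fit coding sequences without untranslated ends. The median locus had a highest group mean of 5.24 RPKM, against 7.88 for the other XLOC loci and 6.38 for the HSALG models highest in pupae. That mean was below 2 RPKM for 20 loci, from 2 to 10 for 38, from 10 to 100 for 27 and above 100 for 3. In 25 loci the highest group held fewer than 100 reads over its 2 libraries, and 59 loci had at least 1 read in all 14 libraries.

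Outside the pupa, the group with the highest mean of log2(RPKM + 1) was the embryo for 34 loci and the worker for 21. It was the male for 15, and instar 1 and instar 4 for 9 each. The 34 include XLOC_094280, counted under the embryo through a tie, as it had 0 reads in all 10 non-pupal libraries. Differences among the non-pupal groups were not used by the rule except that it caps their levels below the pupal mean, and they were tested with limma on the 10 non-pupal libraries, with Benjamini-Hochberg adjustment over all 12421 genes and a call at an adjusted p below 0.05. All 88 loci entered, of which 69 would have passed the filter on the non-pupal libraries alone, and the other 19 needed pupal libraries to pass. Over the 5 non-pupal groups 27 of 88 loci varied, beside 75.1% of all genes tested, 44.9% of the HSALG models chosen by the same rule and 247 of the 309 other XLOC loci. The rule keeps loci with a high level in a non-pupal group out of the 88, so this share is not independent of the choice. Median scaling gave 45 varying loci and the fit with all 14 libraries 11, beside 7891 and 8323 of all 12421 genes. Leaving out single libraries moved this number as well, in fits where a group keeps a lone library.

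Between embryos and instar 1 larvae 5 of the 88 loci rose and 8 fell, beside 34.0% of all genes tested, with 5.65% higher and 28.4% lower, and 24.9% of the HSALG models highest in pupae. XLOC_055444 rose by 2.91 ± 0.98 on the log2 scale (SE, n = 2 libraries a group; limma, adjusted p = 0.0448), a call lost in 11 of 19 alternatives. XLOC_064315 rose from 0.144 and 0.952 to 7.77 and 6.59 RPKM, a log2 difference of 2.45 ± 0.37 (limma, adjusted p = 0.00185). XLOC_004867 fell from 45.8 and 17.8 to 6.12 and 5.25 RPKM, a log2 difference of -2.15 ± 0.50 (limma, adjusted p = 0.0106). XLOC_059308 fell from 23.4 and 8.24 to 6.10 and 0.976 RPKM, a log2 difference of -2.0025 ± 0.61 (limma, adjusted p = 0.0301). Embryo and instar 1 libraries did not overlap for any of the 4 named loci, which the choice of named loci required. The median difference was -0.21 for the 88 loci and -0.55 for all genes tested. Median scaling moved the median of all genes to 0.29 and the split to 25 higher and 2 lower. Quantile scaling gave 6 higher and 1 lower, and log2(RPKM + 0.1) gave 8 of each. The 4 named loci kept their direction under these settings, but not all kept their call. XLOC_059308 lost it under median and quantile scaling (limma, adjusted p = 0.109 and 0.124), with log2 differences of -1.16 and -1.26. XLOC_004867 lost it under quantile scaling (limma, adjusted p = 0.0686) and XLOC_055444 with log2(RPKM + 0.1) (0.0528).

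The calls of these loci rest on few libraries. Without embryo replicate 1 the calls of XLOC_055444 (limma, adjusted p = 0.299), XLOC_004867 (0.0614) and XLOC_059308 (0.187) were lost, and without instar 1 replicate 2 those of the same loci (0.153, 0.0677 and 0.217). The call of XLOC_055444 was also lost without instar 1 replicate 1 (limma, adjusted p = 0.135). Both XLOC_055444 and XLOC_059308 lost it without either instar 4 or either worker library, with adjusted p from limma between 0.0516 and 0.0739. With only the 4 libraries compared, all 4 named loci lost the call (limma, adjusted p between 0.0798 and 0.181). Without a filter XLOC_055444 and XLOC_059308 lost it (limma, adjusted p = 0.145 and 0.0958), and with all 14 libraries in 1 fit XLOC_055444 and XLOC_004867 did (0.257 and 0.0774). The median difference of the 88 loci was -0.40 without embryo replicate 2, 0.02 without embryo replicate 1 and -0.14 without instar 1 replicate 2. That of all genes tested was -0.61, -0.44 and -0.43 in the same order.

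From instar 1 to instar 4 larvae 2 loci rose and 7 fell, beside 33.6% of all genes tested, with 6.71% higher and 26.9% lower, and 15.0% of the HSALG models highest in pupae. XLOC_055444, the abundant late pupal locus, fell by 4.92 ± 0.98 on the log2 scale (limma, adjusted p = 0.00421), a call lost only in the fit with all 14 libraries among 19 alternatives. XLOC_085232 fell from 6.98 and 13.7 to 0.633 and 0.636 RPKM, a log2 difference of -2.73 ± 0.39 (limma, adjusted p = 0.000739), lost in the same fit alone. That locus stood at 56.0 and 1.44 RPKM in early and 19.2 and 22.7 in late pupae. XLOC_013679 rose from 2.31 and 0.465 to 6.86 and 7.25 RPKM, a log2 difference of 1.87 ± 0.45 (limma, adjusted p = 0.0106). XLOC_027034 rose from 2.94 and 1.85 to 14.3 and 5.12 RPKM, a log2 difference of 1.53 ± 0.45 (limma, adjusted p = 0.0263).

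The calls of the latter 2 loci were lost without instar 4 replicate 1 (limma, adjusted p = 0.0627 for XLOC_013679 and 0.230 for XLOC_027034) and without instar 1 replicate 2 (0.0671 and 0.127), and that of XLOC_013679 without instar 4 replicate 2 (0.0703). Both were also lost with only the 4 libraries compared (limma, adjusted p = 0.0521 and 0.105), and that of XLOC_027034 without a filter (0.0764) and with all 14 libraries in 1 fit (0.191). Without instar 4 replicate 1 the median difference was -0.06 for the 88 loci and -0.38 for all genes tested. Without instar 1 replicate 2 it was -0.10 and -0.52. With all 10 libraries it was -0.02 for the 88 loci and -0.36 for all genes tested. With median scaling the latter became 0.02 and the split 9 higher against 4 lower, and with quantile scaling the split was 8 against 4.

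Between instar 4 larvae and adult workers, the stages on either side of the pupa, 7 loci rose and 2 fell, beside 17.8% of all genes tested, with 14.8% higher and 2.98% lower, and 15.3% of the HSALG models highest in pupae. XLOC_064315 rose from 7.23 and 6.65 to 44.7 and 45.1 RPKM, a log2 difference of 2.53 ± 0.37 (limma, adjusted p = 0.00142). This call held in all 19 alternatives. The male libraries stood at 39.7 and 69.6 RPKM. Workers were not tested against embryos or instar 1. XLOC_004867 rose from 2.99 and 2.46 to 14.5 and 16.8 RPKM, a log2 difference of 2.16 ± 0.50 (limma, adjusted p = 0.0153). The 2 loci that fell were XLOC_092877, by 1.92 ± 0.55, and XLOC_057380, by 0.99 ± 0.28 on the log2 scale (limma, adjusted p = 0.0380 and 0.0377). Both had their highest mean in early pupae.

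Without any 1 of the 4 instar 4 and worker libraries the call of XLOC_004867 was lost (limma, adjusted p between 0.0811 and 0.121). The calls of XLOC_092877 and XLOC_057380 were lost without instar 4 replicate 1 (limma, adjusted p = 0.171 and 0.280), worker replicate 1 (0.158 and 0.102) or worker replicate 2 (0.194 and 0.273). That of XLOC_092877 was also lost without any 1 of the instar 1 and male libraries, with adjusted p from limma between 0.0543 and 0.0619. Without a filter all 3 calls were lost (limma, adjusted p = 0.0582 for XLOC_004867, 0.129 for XLOC_092877 and 0.0565 for XLOC_057380), and with all 14 libraries in 1 fit likewise (0.128, 0.105 and 0.355). XLOC_092877 also lost it with only the 4 libraries compared (limma, adjusted p = 0.0782), and XLOC_057380 at a mean RPKM of at least 5 (0.0556) and with no variance trend (0.0518). With only the 4 libraries compared 19 loci were called, beside 5351 of all 12421 genes. Without instar 4 replicate 1 the median difference was 0.19 for the 88 loci and 0.38 for all genes tested. It was 0.24 and 0.46 without worker replicate 1, and 0.04 and 0.26 without worker replicate 2. With all 10 libraries it was 0.15 for the 88 loci and 0.35 for all genes tested. With median scaling the latter became -0.07 and the split 3 higher against 3 lower, and with quantile scaling the split was 7 against 5.

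Males and workers differed in 3 of the 88 loci, beside 4.80% of all genes tested and 2.14% of the HSALG models highest in pupae. All 3 were lower in males with all 10 libraries, beside 2.15% of all genes lower and 2.65% higher. Without male replicate 1 the called loci lay in both directions, in a fit where males keep a lone library. XLOC_007232 stood at 3.10 and 0.733 RPKM in males and 7.54 and 17.2 in workers, a log2 difference of -2.23 ± 0.51 (limma, adjusted p = 0.0377). XLOC_027034 stood at 0.606 and 0.888 RPKM in males and 4.59 and 7.24 in workers, a log2 difference of -1.96 ± 0.45 (limma, adjusted p = 0.0388). XLOC_038990, chosen after its values were seen, stood at 0.630 and 0 RPKM in males and 2.35 and 2.60 in workers, a log2 difference of -1.44 ± 0.27 (limma, adjusted p = 0.0153). The late pupal loci XLOC_066657, XLOC_066658 and XLOC_055444, with higher values in male replicate 2 than in replicate 1, did not pass (limma, adjusted p = 0.279, 0.124 and 0.156).

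The 3 calls between males and workers depended on single libraries. The median difference of the 88 loci was -0.16 without worker replicate 1 and -0.03 without worker replicate 2, beside -0.03 and 0.11 for all genes tested. It was -0.21 without male replicate 1 and 0.05 without male replicate 2, beside -0.12 and 0.15. At an unadjusted p below 0.05 limma gave 10 loci with all 10 libraries. Over 19 alternatives the adjusted p of XLOC_007232 from limma ran from 0.0227 to 0.330 and that of XLOC_027034 from 0.0260 to 0.312. Both loci lost the call without either instar 1 library, with adjusted p from limma between 0.0502 and 0.0513. Without worker replicate 1, worker replicate 2 and male replicate 2 in turn, XLOC_007232 gave an adjusted p from limma of 0.0832, 0.330 and 0.189, and XLOC_027034 gave 0.151, 0.312 and 0.127. XLOC_007232 also lost the call without instar 4 replicate 1 or 2 (limma, adjusted p = 0.0796 and 0.0801), and XLOC_027034 without male replicate 1 (0.128). Without a filter both were lost (limma, adjusted p = 0.115 and 0.112), as with only the 4 libraries compared (0.125 and 0.0632), and XLOC_027034 was lost with all 14 libraries in 1 fit (0.258). With all 10 libraries the median difference was -0.11 for the 88 loci and 0.03 for all genes tested.

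**Figure D5:**
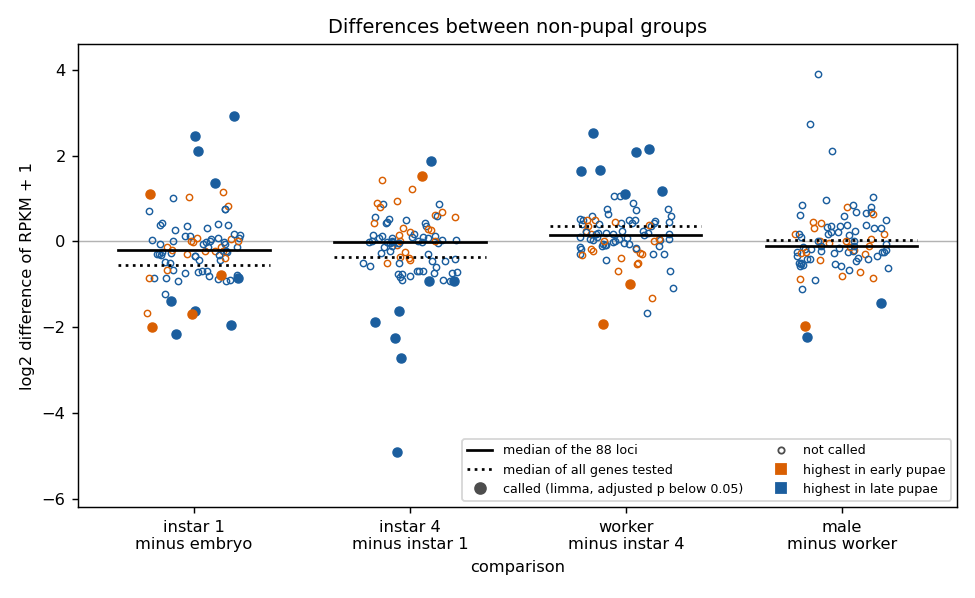
Log2 difference of RPKM + 1 for each of the 88 loci in 4 comparisons between non-pupal groups. Filled points were called by limma (13, 9, 9 and 3 loci from left to right), solid lines are the median of the 88 loci and dotted lines that of all genes tested, and most points lie within 1 of 0.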

How the data were processed

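Poly(A) RNA libraries were strand-specific by dUTP, per the labels' protocols. The authors deposited RPKM for 20755 gene models. The software list in the submitters' processing notes holds STAR 2.5.0b and DESeq2, without their steps. Which read counter, build and gene lengths were used is not given in the sources used here, so reads shared between an XLOC locus and an overlapping gene cannot be told apart. Samples were grouped by title.

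Whole reads were resolved by searching, for each gene, a whole-number length at which its RPKM values are whole reads (relative tolerance at most 6e-06), for 18541 of 18543 genes above 0. On 2 simulated tables all 14 read numbers came out exact for 98.99% of 397 XLOC loci in the poorer table. Floors of 3 reads cover counting error only: the labels describe no molecular identifiers, so reads are not counted molecules.

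log2(RPKM + 1) of the 10 non-pupal libraries was modelled by limma 3.58.1 (R 4.3.3; intensity trend, no block, two-sided) and tested on simulated data. The simulated reads had the same spread setting for all genes and libraries, unlike the replicates here. The simulation therefore does not show how reliable the calls are in these data. Pupal contrasts were used by the rule and were not tested. Python 3.11.15, numpy 2.4.6, pandas 2.3.3 and matplotlib 3.10.9 did the rest. Alternatives were log2(RPKM + 0.1), no filter, a mean RPKM of at least 5, median and quantile scaling, no trend, all 14 libraries, only the 4 compared, a replicate block, and leaving out each library.

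Named loci were those with the highest pupal level or widest gap, the up to 2 called loci with the largest difference in each direction per comparison without overlap, those at the edge of the rule, the longest and shortest, and those with the closest and widest replicates. The loci and rules were chosen with earlier results of these data known.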

Additional observations from a re-analysis of the deposited data

How the results depend on the processing

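Over 20 alternatives other than the stricter filter, 34 of the 88 loci stayed highest in pupae in all, among them 17 of the 21 with a gap of at least 1 on the log2 scale. A mean RPKM of at least 5, which tests fewer genes, left 28 loci, so counts in that setting are over 28 loci and not 88. Leaving out each library gave 62 to 122. Of 115 alternative counts 81 stayed within 1.5 times, and of 266 alternative values of named loci 187 kept their call, 79 lost it and 0 reversed. Beyond settings with fewer genes or libraries, the cause was not tested.

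Counts that moved are given in the order of the 4 comparisons. Without a filter, instar 1 against embryo gave 8 called loci, worker against instar 4 5 and male against worker 1. Of all 18543 genes then tested, limma called 3306, 1824 and 431. At a mean RPKM of 5 worker against instar 4 gave 4, and 15 loci varied, beside 1482 and 5828 of 6872 genes. Median scaling gave 27 for instar 1 against embryo, with 45 varying, and quantile scaling 7. Of all 12421 genes these were 3627, 7891 and 2629. With all 14 libraries in 1 fit the 4 comparisons gave 3, 2, 2 and 1 and 11 loci varied. Over all genes these were 3464, 3587, 1370, 371 and 8323. Fits of only the 4 libraries at hand gave 0 for instar 1 against embryo, 19 for worker against instar 4 and 0 for male against worker, where limma called 72, 5351 and 226 of all genes. At an unadjusted p below 0.05 the counts of 0 were 15 and 13 loci. Leaving out each library gave 6 to 30, 3 to 13, 2 to 13 and 0 to 5 called loci and 17 to 44 varying ones. The lone library of such a group was assumed to vary like other groups.

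Replicate numbers have no stated meaning in the labels. Correlations of same-numbered deviations ran from -0.17 to 0.07 in 10 pairs of groups, and the numbers were treated as names only. With the replicate block there were 14, 7, 10 and 3 called loci and 27 varying. Depth limits the low loci: 25 of 88 had under 100 reads in their highest group.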
